A study of Homo sapiens with 4 samples.

Results

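The genes described here build cholesterol and fatty acids or control that synthesis, and they were followed in gastric epithelial cells exposed to a bacterial glycolipid. A list of 27 symbols was used. For each symbol, the probe sets that the array annotation assigns to that symbol alone were collected, and the one with the highest mean over the 4 arrays stood for the gene. In all, 24 of the 27 genes had such a probe set, among 16252 genes tested in the same way. CYP51A1, which removes a methyl group from lanosterol, and FADS1, a fatty acid desaturase, lay only on probe sets that also carry another symbol. These 2 genes and FDFT1, the squalene synthase, were not analysed here. By role, 7 of the measured genes act from acetyl-CoA to farnesyl diphosphate (the mevalonate steps), 8 act on squalene and sterols, 4 control the pathway or carry cholesterol, and 5 make, lengthen or desaturate fatty acids. The first 2 of these groups together form the sterol branch of 15 measured genes.

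The cells were MKN45, an established human line of gastric epithelial cells from an adenocarcinoma. Lipopolysaccharide (LPS) of Helicobacter pylori, the glycolipid of the outer membrane of this stomach bacterium, was given at 10 µg/ml in new medium, untreated cells received new medium without it, and all cells grew in medium with foetal calf serum. Total RNA taken after 8 h was put on Affymetrix arrays, 2 for untreated and 2 for LPS-treated cells. The series text speaks of independent experiments, 2 in number, in 1 cell line, so p-values and intervals measure the spread between these arrays and not a spread over further lines or experiments.

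Cholesterol is built from acetyl-CoA through mevalonate, farnesyl diphosphate, squalene and lanosterol, and fatty acids are built from acetyl-CoA through malonyl-CoA. Both branches are under sterol regulatory element binding proteins (SREBPs), membrane-bound transcription factors that leave the endoplasmic reticulum and are cut to an active form when membrane sterols are low. SREBPs bind sterol regulatory elements in promoters, usually beside sites for the general factors NF-Y and SP1. INSIG proteins hold the SREBPs back when sterols are plentiful, and serum in the medium is a source of cholesterol for cultured cells.

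Promoter sequence shows what the genes share apart from the array values. RefSeq promoter windows of build GRCh38.p14, from 250 bases before to 50 bases after a transcription start, were at hand for 21 of the 24 measured genes, in 29 windows; for SQLE, ACAT2 and FASN no window was used. The NF-Y box CCAAT, searched on both strands, lay in the windows of 18 of 21 genes (85.7%), against 39.7% of 27305 genes in the same table and 42.1% of 15843 protein-coding genes. It was in 12 of 13 genes of the sterol branch and in 3 of 4 of the fatty acid branch. The 47 matches, at 46 sites because a SC5D site lies in both of its overlapping windows, started between base -229 and base 9 from the start site, with a median of -122. The SP1 box GGGCGG was in 20 of 21 genes (95.2%), against 48.3% of all genes and 64.3% of protein-coding genes. The E-box CACGTG was in 3 of 21 (14.3%), against 8.77% and 10.9%. The SRE-type motif TCACNCCAC was in 1 of 21 (4.76%), SREBF2, against 1.39% and 1.51%. Each motif was counted apart, whether or not its matches overlapped those of another motif. A match is a description of these letters and does not show binding. The comparison genes were not matched for level on the arrays, so the shares are not shown to be particular to this pathway. No difference in these shares was tested.

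Sequences before the start site are printed for 4 genes, 5′ to 3′ on the gene's strand, each 250 bases long. SREBF2 is shown for its SRE-type match, DHCR7 because both of its probe sets were higher on both LPS arrays, HSD17B7 as the gene with the smallest p among those lower, and NSDHL for its 5 CCAAT matches, an overlapping pair included; these choices were made after the values were seen. Capitals mark CCAAT on either strand (ATTGG is the same box on the other strand) and, in SREBF2 only, the SRE-type motif as TCACCCCAC. The further HSD17B7 match lies after the start site and is not printed. DHCR7 has 2 windows, and the printed one was picked for its CCAAT matches. The other held 0 matches to the NF-Y box, the SP1 box, the E-box and the SRE-type motif.
SREBF2 (chr22:41832855-41833104, strand +): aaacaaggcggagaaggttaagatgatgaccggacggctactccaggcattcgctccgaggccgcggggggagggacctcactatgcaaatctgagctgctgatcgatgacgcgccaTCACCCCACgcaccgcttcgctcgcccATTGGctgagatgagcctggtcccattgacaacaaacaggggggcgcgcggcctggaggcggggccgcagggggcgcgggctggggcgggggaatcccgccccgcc
DHCR7 (chr11:71448394-71448643, strand -): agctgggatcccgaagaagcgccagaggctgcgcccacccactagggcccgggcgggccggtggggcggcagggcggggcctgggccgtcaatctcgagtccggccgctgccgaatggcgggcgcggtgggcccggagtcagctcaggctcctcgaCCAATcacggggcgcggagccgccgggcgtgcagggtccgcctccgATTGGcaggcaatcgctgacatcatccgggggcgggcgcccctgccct
HSD17B7 (chr1:162790452-162790701, strand +): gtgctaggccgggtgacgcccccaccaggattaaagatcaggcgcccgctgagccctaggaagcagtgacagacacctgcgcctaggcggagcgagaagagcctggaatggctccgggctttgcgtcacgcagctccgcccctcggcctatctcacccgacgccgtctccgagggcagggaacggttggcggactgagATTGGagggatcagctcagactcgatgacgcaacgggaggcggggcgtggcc
NSDHL (chrX:152830813-152831062, strand +): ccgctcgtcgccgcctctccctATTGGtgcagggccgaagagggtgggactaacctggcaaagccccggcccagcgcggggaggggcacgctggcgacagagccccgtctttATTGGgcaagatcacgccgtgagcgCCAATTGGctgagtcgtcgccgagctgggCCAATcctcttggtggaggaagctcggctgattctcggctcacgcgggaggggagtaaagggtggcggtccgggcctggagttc

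**Figure D1:**
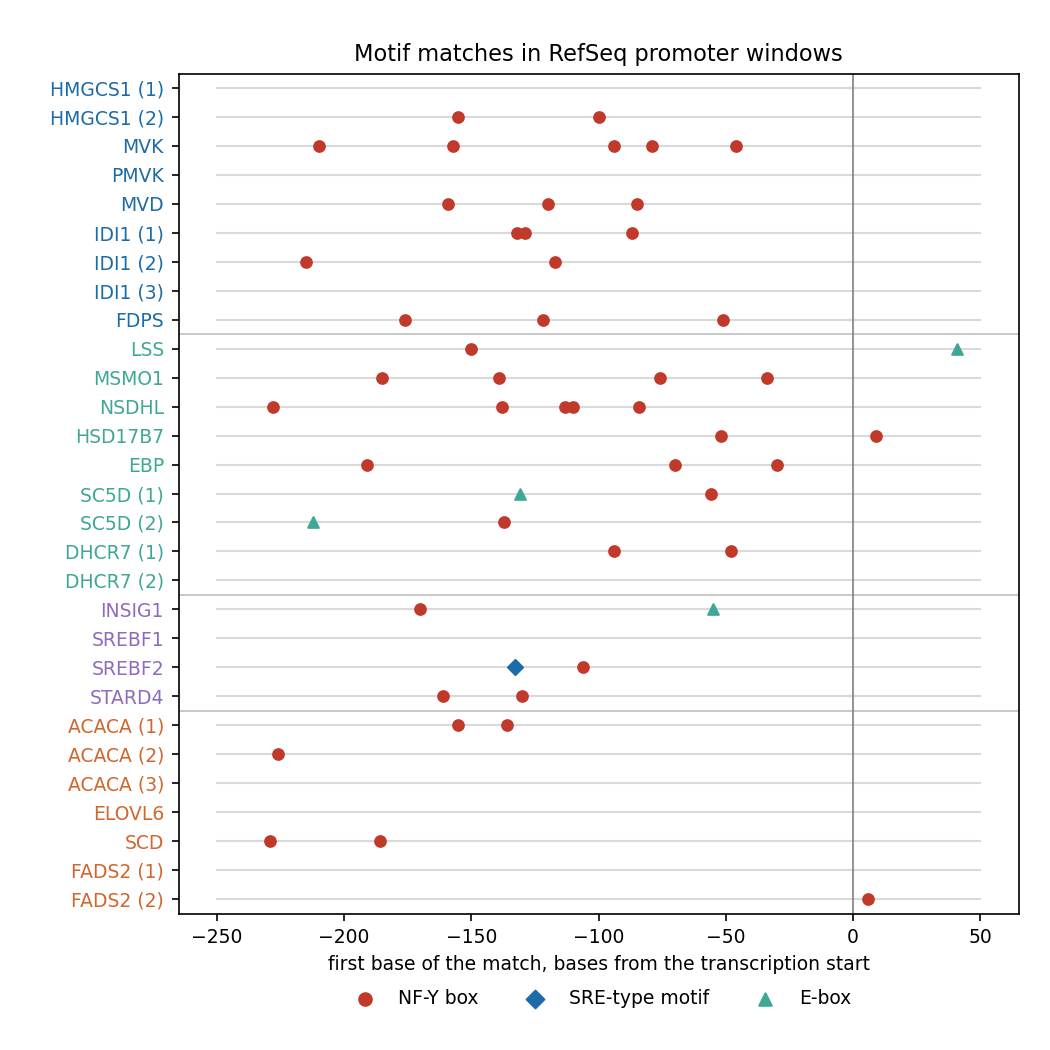
Positions of motif matches in the promoter windows of 21 genes; the x axis is the first base of the match in bases from the transcription start, each row is a window (numbered where a gene has several), and symbols mark the NF-Y box, the SRE-type motif and the E-box (the SP1 box is not drawn). Most NF-Y boxes lie before the start, with a median of -122, and the SRE-type match is in SREBF2 alone.

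The median over 54613 probe sets was 7.004 to 7.034 on the log2 scale. These medians were nearly equal, which does not measure how alike the RNA samples were. The distributions were not the same at every level. Quantile normalization moved the difference of FASN from 0.50 to 0.55 and that of ACAT2 from -0.034 to 0.012. The poly-A control RNAs, which are meant to be added before labelling (24 probe sets), averaged 8.43 on the untreated and 7.95 on the LPS arrays, lower by 0.48, and all 24 were lower on both LPS arrays; with 3 further bacterial control probe sets (TrpnX) the difference was -0.43 and 25 of 27 were lower. The control RNAs meant for the hybridisation mix (18 probe sets) differed by -0.15, with 2 of 18 lower on both LPS arrays. By array they were at 10.29 and 10.10 without LPS and at 9.89 and 10.19 with it. The part of these differences in the results was not tested. Of the 12 epithelial markers, 11 were at or above the filter on low values (the 30 percentile of mean level, 6.06), with EPCAM at 13.83 and CDH1 at 13.12; KRT20 was under it. Of 4 leukocyte markers measured, PTPRC and CD14 were under the filter, CD3E was at 7.90, and LYZ, also made by gastric epithelium, was at 12.67. Of 8 fibroblast and endothelial markers, 7 were at or above it, the brightest being COL1A1 at 9.17, and CDH5 was under it. Of 6 adipocyte and liver markers, ADIPOQ, LEP and ALB were under it, and PLIN1 (7.71), SERPINA1 (7.55) and APOA1 (6.84) were above it. A signal above this filter does not by itself show expression. The mean of the epithelial list was 11.35 and 11.37 on the untreated and 11.40 and 11.40 on the LPS arrays, that of the leukocyte list was 7.97 and 7.92 against 7.86 and 7.89, that of the fibroblast and endothelial list 7.03 and 7.17 against 7.22 and 7.15, and that of the adipocyte and liver list 6.44 and 6.36 against 6.38 and 6.40. Their part in the results was not tested.

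As a group the genes gave bright signals. Their log2 levels, averaged over the 4 arrays, ran from 7.70 for MVD to 13.39 for SCD, 23 of 24 lay above the median of all genes tested (8.46), and 17 lay above the 75 percentile. Array signal depends on the probes as well as on the RNA, so these levels do not order the genes by abundance.

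The arrays measured whole cultures, so fewer cells with a transcript and less of it per cell cannot be told apart. No gene of the list passed the test for a difference between LPS-treated and untreated cells. The test was limma's, on log2 values, with p-values adjusted by Benjamini-Hochberg over all 16252 genes and a threshold of 0.05. Over all genes it called 4, all higher with LPS, which is 0.0246% of those tested. Of the 24 listed genes 0 passed, and 1 was higher (FASN) and 1 lower (HSD17B7) with p below 0.05 before adjustment, against 3.72% of all genes higher and 7.91% lower. The smallest adjusted p in the list was 0.257, for FASN. Both LPS arrays lay above both untreated arrays in 5 of 24 genes (20.8%; over all genes 19.7%) and below both in 4 of 24 (16.7%; over all genes 25.7%). The first share is near that of all genes and the second is smaller. Among the 10428 genes at or above the level of MVD, the faintest listed gene, 16.3% were higher on both LPS arrays and 32.5% lower. These are counts, and no difference between the list and other genes was tested.

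**Figure D2:**
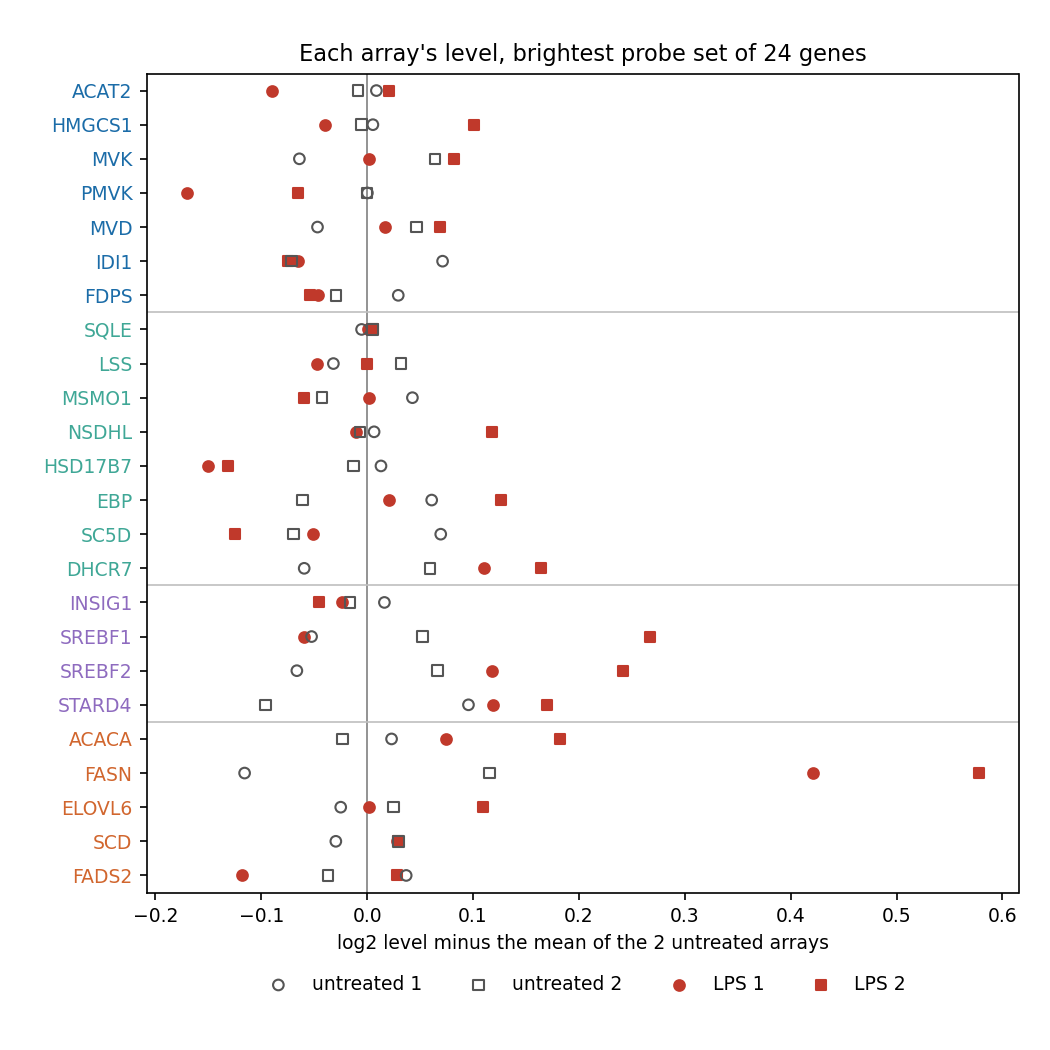
Level of each of the 4 arrays for the brightest probe set of 24 genes, as the log2 level minus the mean of the 2 untreated arrays (x axis); open symbols are untreated, filled are LPS, circles are replicate 1, squares replicate 2, and lines separate the 4 roles. The arrays of the 2 groups are apart in 9 genes and overlap in the other 15, and FASN lies farthest to the right. Over all 16252 genes tested, the arrays overlap in 8879.

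In the mevalonate steps, 5 of 7 genes had overlapping arrays, as did 8879 of all 16252 genes tested. The median difference of these steps was -0.034. ACAT2, which joins acetyl-CoA units, was at 10.63 and 10.61 in untreated cells and at 10.53 and 10.64 with LPS. HMGCS1, the synthase that makes HMG-CoA, differed by 0.030 (95% interval -0.14 to 0.20). The kinase MVK (0.042), the decarboxylase MVD (0.043) and the isomerase IDI1 (-0.070) also overlapped. The IDI1 value is from a probe set of the kind (_x_at) that can bind related transcripts. PMVK, the kinase that follows MVK, was at 9.38 and 9.38 in untreated cells and at 9.21 and 9.31 with LPS, so both LPS arrays were lower. The difference of -0.12 (-0.30 to 0.06) had an adjusted p of 0.565. FDPS, which makes farnesyl diphosphate for sterols and prenylated proteins, was at 12.43 and 12.37 against 12.35 and 12.34. Both LPS arrays were lower here too, with a difference of -0.050 (-0.16 to 0.06, adjusted p 0.685).

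In the squalene and sterol steps, 6 of 8 genes had overlapping arrays, beside 8879 of all 16252 genes tested. The median difference of these steps was -0.010. SQLE, the squalene epoxidase and a controlled step of the pathway, was at 11.73 and 11.74 without and at 11.74 and 11.74 with LPS. Its difference of 0.0033 had an interval of -0.11 to 0.12. LSS, which closes the rings to lanosterol, differed by -0.024, the methylsterol oxidase MSMO1 by -0.029 and the dehydrogenase NSDHL by 0.054. The sterol isomerase EBP differed by 0.074 and the desaturase SC5D by -0.088. HSD17B7, a ketosteroid reductase of cholesterol synthesis, was at 10.97 and 10.94 in untreated cells and at 10.81 and 10.82 with LPS, with the arrays apart. The difference was -0.14 (-0.28 to -0.0029), with an unadjusted p of 0.0465 and an adjusted p of 0.421. Its probe set is of the kind (_x_at) that can bind related transcripts, and a pseudogene of this gene exists, so its signal is uncertain. DHCR7, the last reductase before cholesterol, was at 11.01 and 11.13 against 11.18 and 11.24, with both LPS arrays higher. The difference was 0.14 (-0.016 to 0.29, adjusted p 0.453).

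Over the sterol branch 7 genes differed above 0 and 8 below, 12 of 15 lay within 0.1 of no difference, and the median was -0.024; it was 0.029 after quantile normalization and 0.023 after cyclic loess, so its sign depends on the scaling. At the brightest probe sets, intervals of these 15 genes together spanned folds of 0.814 to 1.22, and 1 of 15, that of HSD17B7, left out 0. Over all 16252 genes tested, 1891 intervals left out 0.

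In control and transport, 3 of 4 genes differed above 0, with a median of 0.12, and none was called. SREBF2, whose protein acts mainly on cholesterol genes, was at 9.21 and 9.35 in untreated cells and at 9.40 and 9.52 with LPS. Both LPS arrays were higher, and the difference was 0.18 (-0.021 to 0.38, adjusted p 0.453). SREBF1, whose protein acts mainly on fatty acid genes, was at 9.60 and 9.70 against 9.59 and 9.92, and these arrays overlapped. Its difference of 0.10 was -0.060 without LPS replicate 2. STARD4, which carries cholesterol between membranes, was at 10.44 and 10.25 against 10.47 and 10.52, a difference of 0.14 (-0.048 to 0.34, adjusted p 0.513). It was 0.049 without untreated replicate 2 and 0.24 without untreated replicate 1. INSIG1, which retains SREBPs in the endoplasmic reticulum and is itself an SREBP target, was at 11.24 and 11.20 against 11.20 and 11.17. The LPS arrays lay just below the untreated ones, with a difference of -0.035 (-0.17 to 0.096, adjusted p 0.835); the difference was 0.012 after quantile normalization and 0.0099 after cyclic loess.

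In the fatty acid branch, FASN stood apart by size. FASN, the synthase that builds palmitate, was at 10.92 and 11.15 in untreated cells and at 11.46 and 11.62 with LPS. Both LPS arrays were higher, by 0.50 (0.28 to 0.72), or 1.41-fold (1.22 to 1.64), with an unadjusted p of 0.00093 and an adjusted p of 0.257. Among all 16252 genes ordered from the highest difference to the lowest, FASN had rank 9. Its other probe set, of the _x_at kind and much fainter, was at 6.78 and 6.76 against 6.54 and 6.71, a difference of -0.14 in the other direction. The mean of both probe sets differed by 0.18. Both probe sets end in _s_at or _x_at, so the gene had no value without such probe sets. Over all the alternatives tried, the adjusted p of FASN ran from 0.0921 to 0.964.

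ACACA, the carboxylase that makes malonyl-CoA for FASN, was at 10.93 and 10.89 in untreated cells and at 10.98 and 11.09 with LPS. Both LPS arrays were higher, by 0.13 (-0.025 to 0.28, adjusted p 0.473). The elongase ELOVL6 (0.055), the stearoyl-CoA desaturase SCD (0.029) and the desaturase FADS2 (-0.045) had overlapping arrays. The median of the branch was 0.055, and 0.042 without FASN. It was 0.103 after quantile normalization and after cyclic loess, and 0.028 (without LPS replicate 2) to 0.11 (without LPS replicate 1) with an array left out.

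**Figure D3:**
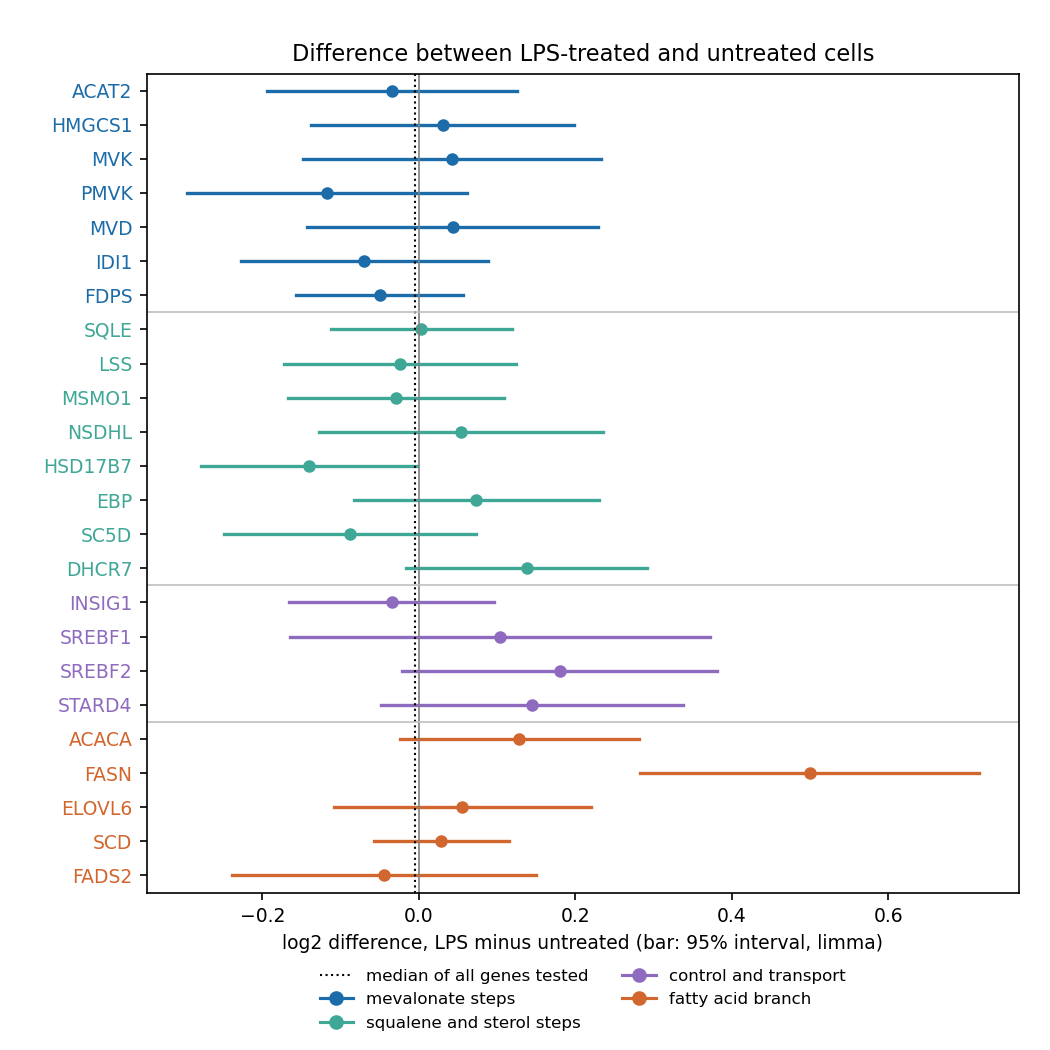
Difference between LPS-treated and untreated cells for 24 genes, with the log2 difference on the x axis and bars for the 95% interval by limma; colours mark the roles and the dotted line the median of all genes tested. Each gene is drawn by its brightest probe set, and the intervals of FASN (0.28 to 0.72) and HSD17B7 (-0.28 to -0.0029) are the 2 that leave out 0. Over all 16252 genes tested, 1891 intervals leave out 0.

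With each array left out in turn, 12 of the 24 differences changed sign, 10 kept it but moved by over 1.5 times, and those of FASN and HSD17B7 did neither. A gene whose groups do not overlap, as in FASN and HSD17B7, cannot change sign in this way, so this is no separate check of them. Apart from FASN, the intervals bound how large a difference these arrays leave room for at the brightest probe set of each gene. Over the other 23 genes, the lowest such bound was 0.814-fold (PMVK) and the highest 1.30-fold (SREBF2). Some fainter probe sets of the same genes had intervals beyond these bounds. In a fit without the level filter, the log2 interval was 0.062 to 0.59 for one of LSS and -0.60 to -0.039 for one of SQLE. The bounds therefore do not hold for every probe set of a gene. They also depend on scaling and arrays: the SREBF2 difference of 0.18 was 0.22 after quantile normalization and 0.25 without untreated replicate 2. Of all 24 genes, 16 (66.7%) differed by less than 0.1 in either direction, against 60.5% of all genes. The median difference was 0.030 over the listed genes and 0.029 without FASN, against -0.0047 over all genes tested and -0.026 over the 10428 genes at or above the level of MVD. Over all genes, the median difference varied with level. In 10 bins of level, the median was 0.033 in bin 1, the faintest, -0.048 in bin 8, -0.049 in bin 9, where 12 of the 24 listed genes lie, and -0.029 in bin 10. The part of this trend in the listed genes' values was not tested. After quantile normalization 5 of the 24 genes were higher with p below 0.05 before adjustment and 0 lower, against 5.62% and 6.02% of all genes; the 5 were FASN, SREBF2, DHCR7, STARD4 and ACACA, and cyclic loess gave the same 5, none of which passed after adjustment.

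**Figure D4:**
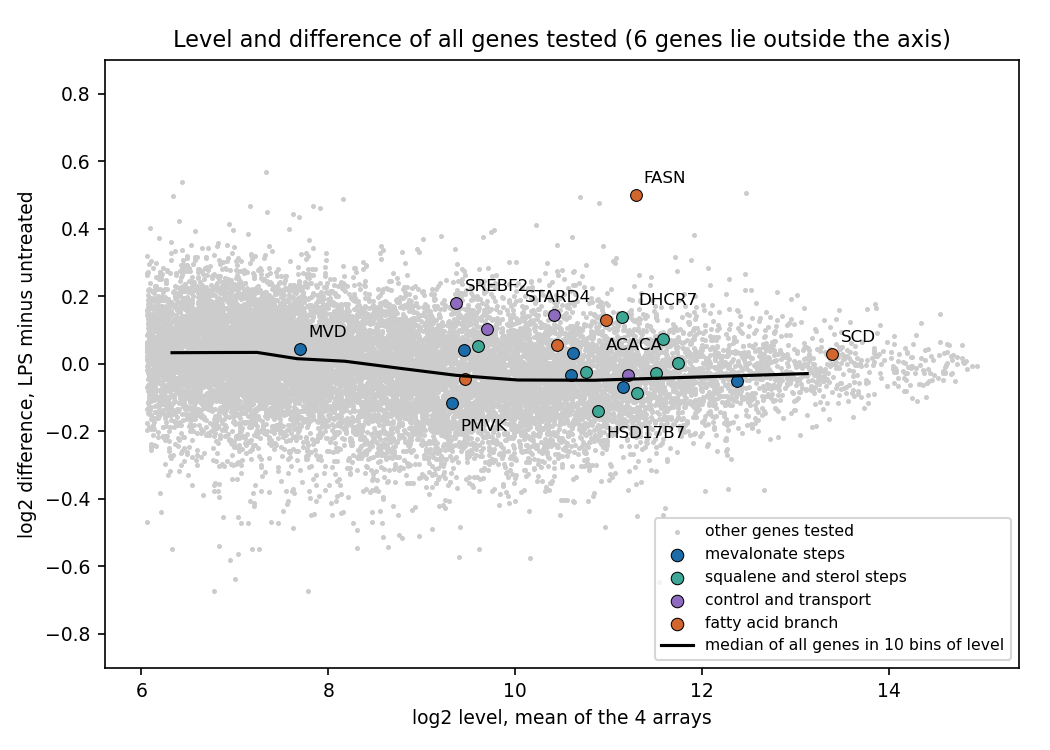
Mean log2 level over the 4 arrays (x axis) against the log2 difference, LPS minus untreated (y axis), for the genes tested; grey points are other genes, coloured points the listed genes by role, and the line the median of all genes in 10 bins of level. The line is flat at about 0.033 in the 3 faintest bins, goes down to -0.049 in bin 9 and is at -0.029 in bin 10, and FASN is the listed gene farthest from it.

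Further probe sets of the same genes gave a second view, although probe sets of a gene share the same RNA. The 24 genes had 55 probe sets, and 54 were at or above the filter. Of the 24 brightest probe sets, 11 end in _x_at or _s_at. Both LPS arrays were above both untreated arrays in 13 of 55 and below in 8 of 55, against 19.5% and 21.1% of all 54613 probe sets. Of the 17 genes with more than 1 probe set, 10 had probe sets with differences of both signs. DHCR7 was higher on both LPS arrays by each of its 2 probe sets (0.14 and 0.13). For SREBF2, 2 of 3 probe sets were higher: the second was at 8.23 and 8.33 without LPS and at 8.54 and 8.58 with it, a difference of 0.28, while another differed by -0.082, with both LPS arrays lower. SCD was above 0 by 4 of 4 probe sets, yet of these only 1 separated the groups, at 12.62 and 12.52 against 12.73 and 12.79 (0.19). For LSS, the faint second probe set differed by 0.33 where the brightest differed by -0.024. For SQLE a faint probe set differed by -0.32, and for HMGCS1 the second differed by 0.22. No probe set of these genes passed over the 38229 tested, the smallest adjusted p being 0.187, for FASN.

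The arrays also split by replicate number, with the first arrays of both groups on one side and the second arrays on the other. This held for 22 of the 55 probe sets, against 31.2% of all 54613. It held for 10 of the 24 brightest, against 28.5% of the 16252 genes tested. By treatment, 21 of the 55 split, 13 higher and 8 lower with LPS, against 19.5% higher and 21.1% lower of all 54613. The first arrays were the higher ones in 11 of the 22 and the lower ones in 11. The widest gaps between numbers were in fainter probe sets of SCD and SQLE. An SCD probe set was at 9.75 and 9.31 in untreated cells and at 9.85 and 9.31 with LPS, and another at 10.02 and 9.75 against 10.34 and 9.80. A SQLE probe set was at 10.09 and 10.37 against 10.03 and 10.30. Among the brightest probe sets the widest such gap was that of SREBF1 (0.22), against 0.10 between treatments.

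**Figure D5:**
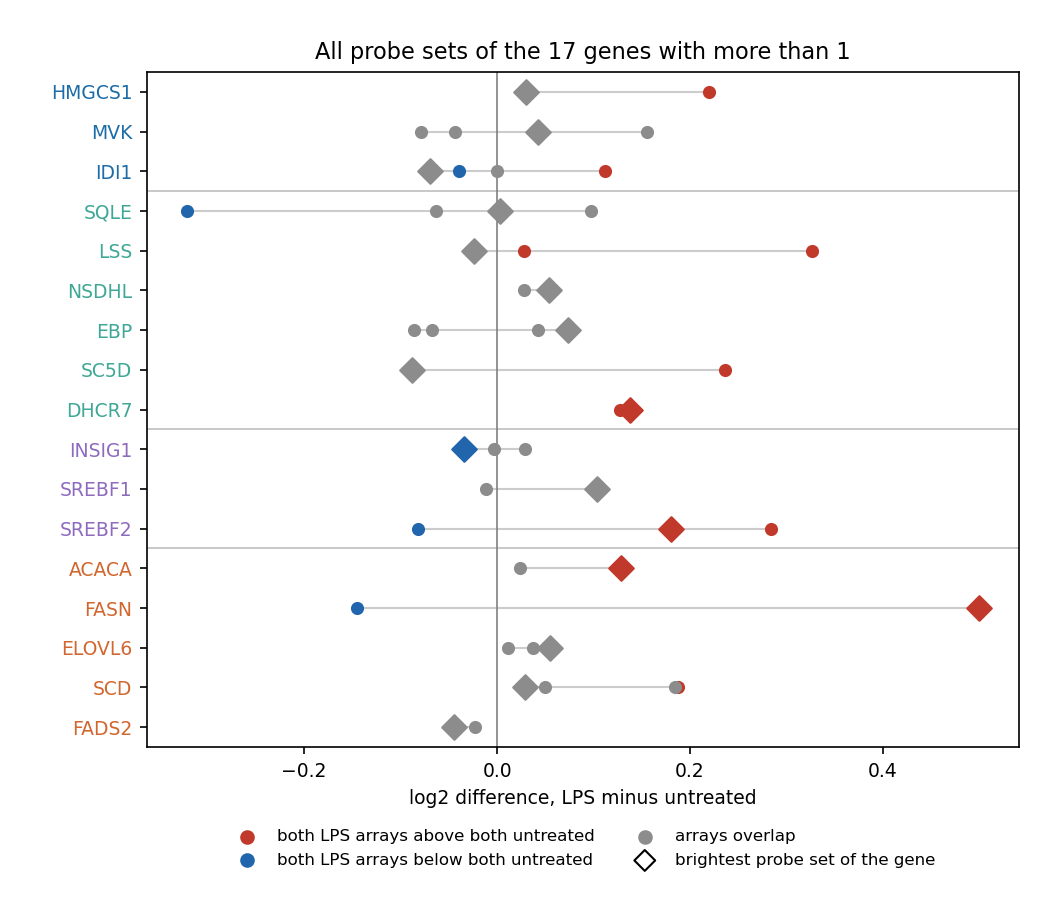
Log2 difference, LPS minus untreated (x axis), of each probe set of the 17 genes with more than 1; diamonds are the brightest probe set of the gene, red and blue mark probe sets with both LPS arrays above or below both untreated arrays, and grey those with overlapping arrays. FASN has the widest spread, from -0.14 to 0.50, and DHCR7 has both probe sets to the right.

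Other genes of the pathway, listed by function, likewise gave no call. Of 50 such genes 43 were measured, 0 passed, and the median difference was -0.033. With p below 0.05 before adjustment, 1 was higher (2.33%), ACACB (0.18, adjusted p 0.400), and 6 were lower (14.0%). These shares were 3.72% and 7.91% over all genes, and 3.05% and 10.7% over the genes at or above the level of MVD. Both LPS arrays were above both untreated arrays in 4 of 43 (9.30%), against 19.7% of all genes and 16.3% of the genes at or above that level. They were below in 16 of 43 (37.2%), against 25.7% and 32.5%. No difference between these genes and other genes was tested. Among 7 further sterol synthesis genes, those with the smallest p were LBR, a lamin receptor with sterol reductase activity (-0.20, adjusted p 0.343), GGPS1, which makes geranylgeranyl diphosphate (-0.22, 0.475), and POR, which passes electrons to the P450 enzymes (0.15, 0.581). Among 17 genes of SREBP processing and cholesterol handling, they were MBTPS2, the second protease that cuts SREBPs (-0.25, adjusted p 0.350), NPC2, which moves cholesterol out of lysosomes (-0.18, 0.362), and MYLIP, a ligase that degrades lipoprotein receptors (-0.16, 0.437). Among 19 genes of fatty acid supply, elongation and esterification, they were the elongation-cycle dehydratase HACD3 (-0.16, adjusted p 0.331), the reductase TECR of the same cycle (-0.18, 0.333) and the mitochondrial synthase OXSM (-0.22, 0.381). MBTPS2 was at 10.35 and 10.20 in untreated cells and at 10.06 and 9.99 with LPS, with the arrays apart. ACLY, which supplies acetyl-CoA in the cytosol, differed by 0.015, and SCAP, the sterol sensor that escorts SREBPs, by 0.12, both with overlapping arrays; these last 3 sets of values were chosen for display after they were seen.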

How the data were processed

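The deposited values were taken as log2 levels of 54675 probe sets on 4 arrays, as judged from the values. MAS5 and RMA are named in the submitters' processing notes; which made the values, and their versions, are not given in the sources used here. Arrays with nearly equal medians can hide a shift of all transcripts one way. After 62 control probe sets were removed, probe sets with a mean under the 30 percentile (6.06) were left out, leaving 38229. Names came from the platform annotation; of 41091 probe sets with a single symbol, 41043 matched RefSeq by Entrez identifier.

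Groups came from the sample labels. LPS-treated and untreated arrays were compared two-sided in R 4.3.3 with limma 3.58.1 (lmFit and eBayes with an intensity trend, no replicate block), with the variance moderated over all probe sets tested (7.06 degrees of freedom), Benjamini-Hochberg adjustment over 16252 genes and a threshold of 0.05. Simulated data with independent noise were used to test a fit with the variance moderated over genes alone. The reported fit over all probe sets was not simulated. The number of arrays limits precision.

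Listed genes were all named. Of other pathway genes, the 3 with the smallest p per group were named, and ACACB, ACLY and SCAP were added after the values were seen. Genes, lists and motifs were chosen with earlier results of these data known. The poly-A set without TrpnX and the variance trend over genes alone were chosen after seeing the data. Alternatives covered filters, scaling, variance models, threshold, replicate block, probe set per gene, and leaving out each array.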

Additional observations from a re-analysis of the deposited data

How the results depend on the processing

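Of the listed genes 0 passed the threshold under every alternative run, with the smallest adjusted p at 0.0921 (limma, variance trend over genes alone, an alternative chosen after seeing the data). Of 352 single-gene values under alternatives, 323 kept their sign and 29 changed it, all in uncalled genes. Over all genes, 4 passed as reported, 7 with the replicate number as a block and 10 with the variance trend over genes alone. Over probe sets, 3 passed as reported, 5 with a filter at the 50 percentile, 8 after quantile normalization (4 higher, 4 lower), 17 after median centring (6 higher, 11 lower), 8 after cyclic loess (4 higher, 4 lower), 5 with robust estimation and 9 at an adjusted p under 0.1; leaving out each array gave 2 to 11 (11 without untreated replicate 1). The causes were not tested.

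The sterol branch median of -0.024 became 0.029 after quantile normalization, 0.023 after cyclic loess and 0.0033 without _x_at and _s_at probe sets (9 genes), and ranged from -0.040 to 0.0080 with each array left out. The fatty acid median of 0.055 became 0.10 under both quantile normalization (0.103) and cyclic loess (0.103), and ranged from 0.028 to 0.11. The median over the listed genes, 0.030 as reported, was 0.046 after quantile normalization, 0.051 after cyclic loess and 0.015 after median centring, and with each array left out ranged from -0.0048 (without LPS replicate 2) to 0.049 (without LPS replicate 1).

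Signs changed after quantile normalization for ACAT2 (0.012), LSS (0.029), MSMO1 (0.012), INSIG1 (0.012) and FADS2 (0.0013), and after cyclic loess for ACAT2 (0.013), LSS (0.023), MSMO1 (0.014) and INSIG1 (0.0099). They changed for SQLE after median centring (-0.011), and with each gene's probe sets averaged for IDI1 (0.00081), SQLE (-0.071), LSS (0.11) and EBP (-0.0094). Without _x_at and _s_at probe sets they changed for IDI1 (0.11) and EBP (-0.086), and FASN had no value. With each array left out, the ranges that crossed 0 were ACAT2 -0.090 to 0.021, HMGCS1 -0.040 to 0.10, MVK -0.022 to 0.11, MVD -0.0039 to 0.090, IDI1 -0.14 to 0.0016, SQLE -0.0019 to 0.0085, LSS -0.056 to 0.0080, MSMO1 -0.072 to 0.014, NSDHL -0.011 to 0.12, SREBF1 -0.060 to 0.27, SCD -0.00094 to 0.058 and FADS2 -0.12 to 0.029. Those that kept their sign but moved by over 1.5 times were PMVK -0.17 to -0.065, FDPS -0.079 to -0.021, EBP 0.013 to 0.13, SC5D -0.16 to -0.018, DHCR7 0.078 to 0.20, INSIG1 -0.051 to -0.018, SREBF2 0.11 to 0.25, STARD4 0.049 to 0.24, ACACA 0.075 to 0.18 and ELOVL6 0.0013 to 0.11. HSD17B7 (-0.15 to -0.13) and FASN (0.38 to 0.62) moved less. In those fits a group with a single array borrowed its spread from the other group.

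The labels give both groups the numbers 1 and 2 and do not say that a number marks an experiment. The differences between replicates 1 and 2 correlated between the groups at 0.103 over all genes and 0.436 over the listed genes (genes are not independent replicates). With the replicate number as a block, 0 listed genes passed and the smallest adjusted p was 0.115.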
